A study of Homo sapiens with 18 samples.

Results

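The repeats described here are the internal sequences and LTR5 long terminal repeats of the HERVK human endogenous retroviruses. They were all annotated copies whose repeat name begins with HERVK or is LTR5, LTR5A, LTR5B or LTR5_Hs. The rule uses names only and no measured value. In the 5-FU table these were 3512 of 2404193 copies, of which 2228 carried 1 of 10 internal names and 1284 carried 1 of 4 LTR5 names. In the Nutlin table they were 3330 of 1996647 copies, with 2061 internal and 1269 LTR5 copies. The 2 tables together held 3537 such copies, and 3305 were in both.

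An endogenous retrovirus is a retroviral genome that entered the germ line. An intact provirus has an internal part with the gag, pro, pol and env genes between a pair of long terminal repeats (LTRs), and the LTRs carry the promoter and the polyadenylation signal. Recombination between the LTRs of a provirus leaves a solo LTR, and solo LTRs outnumber proviruses in the human genome. HERVK is the betaretrovirus-like class. The name HERVK-int, with LTR5, LTR5A, LTR5B and LTR5_Hs as its LTRs, is the HML-2 group, which holds the youngest human proviruses, and LTR5_Hs is its hominoid-specific and youngest LTR form. The other internal names belong to older groups with LTRs of other names, such as HERVK3-int with LTR3 and HERVK9-int with MER9.

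All samples were wildtype IMR90 cells, an established line of human lung fibroblasts. Cells received 5 µM Nutlin, a blocker of the binding of MDM2 to p53, for 6 h, or 375 µM 5-fluorouracil (5-FU), an antimetabolite, for 6, 12 or 24 h. Each drug and time had its own DMSO group of matched volume. Untreated cells had fresh medium 12 h before extraction. There were 18 samples in 9 groups of 2, and nothing in the labels says that the 2 came from separate cultures, so p-values measure the spread between these samples, which may be technical. No gene is listed in either table, so the fibroblast label could not be checked against marker genes. In bulk RNA, fewer cells with a transcript and less of it per cell cannot be told apart.

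Library totals ran from 2412334 to 6290320 counts with 5-FU and its controls, where both DMSO 12 h libraries were the lowest, and from 9109885 to 11880265 with Nutlin and its controls. Between 0.151% and 0.219% of a 5-FU table library lay in HERVK and LTR5 copies, and between 0.0561% and 0.0702% of a library of the other table. Outside structural RNA (rRNA, tRNA and small RNA) these shares were 0.248% to 0.331% in the 5-FU table, and 5-FU 24 h replicate 2 had the highest. Levels below are CPM, each count scaled to a common library size, and counts were not compared across the tables. The CPM of a name and of a copy were scaled by different factors, so only values of the same kind are compared.

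Most copies gave no counts. Of the 3512 copies in the 5-FU table, 1277 had a count in at least 1 library, and 63.6% had none, against 41.6% of all repeat copies. Of the 3330 in the Nutlin table, 948 had a count and 71.5% had none, against 56.0% of all. LTR5 copies had a count in 40.6% of cases and internal copies in 33.9% in the 5-FU table. The yield per length was also higher in the LTRs, at 42.5 counts per kb over all libraries against 19.1 in the internal copies.

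Internal copies were grouped by whether an LTR of an HERVK group lay beside them, joining annotated rows at gaps of up to 500 bases. The 1207 internal copies in runs with an LTR at both ends gave 24.4 counts per kb, and 39.9% of them had a count. The 881 in other runs with an LTR, at 1 end or only within the run, gave 9.38 counts per kb. The 140 with no such LTR gave 10.9. Most LTR5 copies, 1092 of 1284, were in runs with no internal part, and these gave 41.5 counts per kb. The 127 LTR5 copies at proviruses with both LTRs gave 46.3 counts per kb. These are descriptions over copies of the same libraries, with no test.

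With the 5-FU counts, 56 proviruses had HERVK-int between LTR5 names, and they held 93.1% of all HERVK-int counts. Of these, 33 had a count in the internal part. The LTRs of a provirus were often unequal. Among the 18 proviruses with at least 10 LTR counts, the higher LTR held a median of 91.3% of them, with a range from 50% to 100%, and it held over 90% in 9. At the provirus chr1:155596457-155605636 the first LTR5_Hs had 2774 counts and the last had 15, with 2426 in the internal part. At chr3:125609302-125618439 the LTRs had 163 and 239 counts beside 1816 in the internal part. How reads that match several copies were assigned is not given in the sources used here, and it bears on LTRs of a provirus, which can be nearly identical in sequence.

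Levels between names were compared per kb of annotated sequence. In the 5-FU table the mean level was highest for LTR5, at 4.27 CPM per kb. A single fragment of 55 bases, chr7:137564943-137564997, held 91.5% of the counts of that name. Next were LTR5A at 1.03 CPM per kb and HERVK3-int at 0.979, and then LTR5_Hs at 0.664, HERVK13-int at 0.529 and LTR5B at 0.441. HERVK-int, the internal part that goes with all 4 LTRs, was at 0.326 CPM per kb. HERVK14-int had 0.292, HERVK22-int 0.256 and HERVK9-int 0.228 CPM per kb. The 4 lowest, HERVK11-int, HERVKC4-int, HERVK14C-int and HERVK11D-int, were between 0.0252 and 0.0900 CPM per kb.

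Few copies carried each name. The 5 most abundant copies held 49.7% of the LTR5_Hs counts in the 5-FU table and 58.5% of those of HERVK-int. The most abundant LTR5A copy, chr10:33183384-33184411, held 40.0% of the LTR5A counts. The most abundant HERVK3-int copy, chr19:58822615-58824644, held 30.0% of that name. The most abundant HERVK13-int copy, chr16:2711289-2718374, held 57.4%. LTR5B was the most even of the LTR5 names, with 31.4% of its counts in its 5 most abundant copies. Of the 22 HERVK-int copies that spanned at least 90% of the consensus, 18 had a count and they held 52.3% of the HERVK-int counts, while the 3 such HERVK3-int copies held 0.168% of the counts of their name.

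At 12 h of 5-FU all 4 LTR5 names rose against DMSO of the same time, and of the 10 internal names HERVK3-int alone rose. LTR5 stood at 20.6 and 17.5 CPM with 5-FU and at 5.35 and 6.71 with DMSO. LTR5A stood at 345.4 and 327.7 CPM with 5-FU and at 189.0 and 188.2 with DMSO. LTR5B stood at 156.2 and 164.0 CPM against 98.7 and 89.8. In each of these names both 5-FU libraries lay above both DMSO libraries. LTR5_Hs had 336.3 and 336.6 CPM with 5-FU and 239.6 and 236.1 with DMSO, and HERVK3-int had 371.1 and 399.9 against 237.1 and 233.2. For HERVK-int the groups overlapped, at 129.7 and 121.8 CPM against 134.9 and 117.6.

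**Figure D1:**
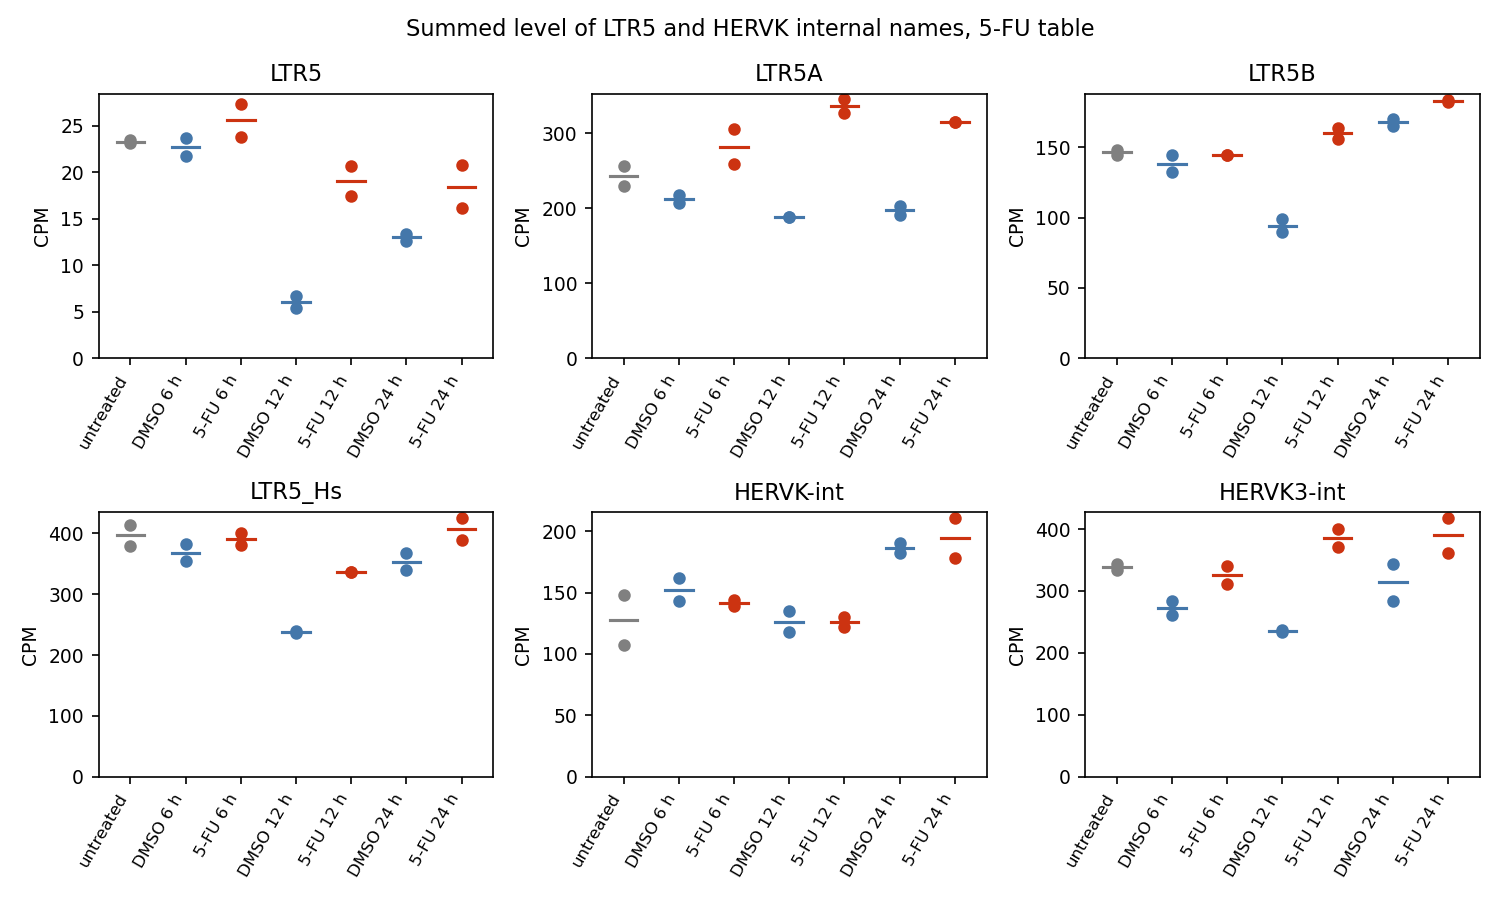
Summed level (CPM, linear axis from 0) of the 4 LTR5 names, HERVK-int and HERVK3-int in each library of the 5-FU table; points are libraries, short lines are group means, with grey for untreated, blue for DMSO and red for 5-FU. The DMSO 12 h libraries of LTR5_Hs, at 239.6 and 236.1 CPM, sit below all its other libraries.

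The log2 fold changes at 12 h were 1.66 (SE 0.25, edgeR adjusted p = 0.000244) for LTR5, 0.84 (SE 0.10, adjusted p = 2.64e-05) for LTR5A, 0.76 (SE 0.09, adjusted p = 4.79e-05) for LTR5B, 0.50 (SE 0.08, adjusted p = 0.000482) for LTR5_Hs and 0.71 (SE 0.11, adjusted p = 0.000214) for HERVK3-int. HERVK-int had -0.01 (SE 0.14, adjusted p = 0.978). These were 5 of 14 names called, all higher, where 33.8% of all repeat names were called with 28.5% called higher and 5.29% lower. The median log2 fold change was 0.80 over the LTR5 names, 0.02 over the internal names and 0.17 over all 1078 names tested. HERVK13-int had the lowest unadjusted p of the other internal names, at -0.55 (adjusted p = 0.0773).

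**Figure D2:**
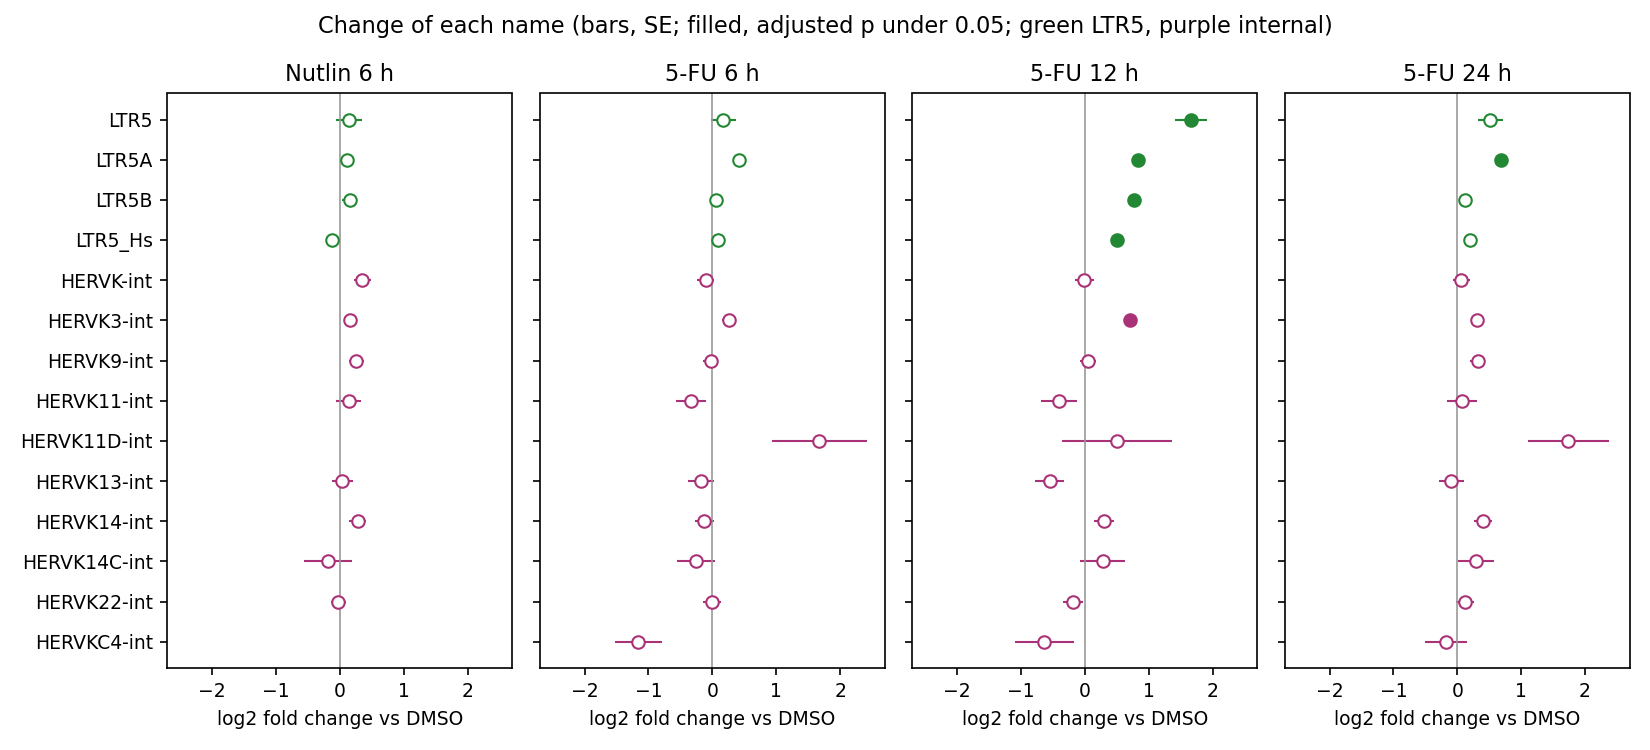
Log2 fold change of each name against its DMSO group (points) with its standard error (bars) in 4 comparisons; green points are LTR5 names, purple points internal names, and filled points have an edgeR adjusted p under 0.05. At 5-FU 12 h the 4 LTR5 names and HERVK3-int are filled, at 24 h LTR5A alone, and in the other 2 comparisons no point is.

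The DMSO 12 h libraries moved with this result. LTR5_Hs had 382.5 and 354.4 CPM in DMSO at 6 h and 367.5 and 339.3 at 24 h, all above both 5-FU 12 h libraries. Against the DMSO libraries of 6 and 24 h in place of 12 h, LTR5_Hs had a log2 fold change of -0.10, LTR5B 0.07 and LTR5 0.15, none of them called. LTR5A, at 0.72, and HERVK3-int, at 0.40, were called higher against those libraries too. The internal names then called lower were HERVK-int (-0.42), HERVK9-int (-0.39), HERVK11-int (-0.98), HERVK13-int (-0.85), HERVK22-int (-0.34) and HERVKC4-int (-1.32). Over all 1078 names that fit called 168 higher and 293 lower. The part of the DMSO 12 h libraries in the 12 h calls was not tested further.

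The scaling also set the balance of calls at 12 h. With library size alone the median of all names was -0.40, and 1 name (LTR5) was called higher and 5 internal names lower, beside 61 higher and 436 lower of all 1078 names. RLE factors gave a median of all names of -0.02. With them the 5 names remained higher and HERVK13-int (-0.74) and HERVK22-int (-0.37) were called lower. Over all names that fit called 184 higher and 201 lower. A scaling factor shifts all names of a library alike, so these scalings could not change the order of the names. LTR5A, LTR5B and LTR5_Hs thus stayed above HERVK-int in log2 fold change. LTR5_Hs itself was at -0.07 with library size alone.

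LTR5A was the LTR5 name called at 24 h. It had 315.7 and 315.8 CPM with 5-FU and 203.2 and 191.3 with DMSO, a log2 fold change of 0.68 (SE 0.09, edgeR adjusted p = 0.000418). This was 1 of 14 names, higher, against 12.1% of all names called (10.9% higher and 1.21% lower). The call was lost with library size alone (0.45, adjusted p = 0.0642) and with the libraries of the comparison alone (0.57, adjusted p = 0.128). HERVK3-int had a log2 fold change of 0.31 (adjusted p = 0.0691) and LTR5_Hs 0.20 (adjusted p = 0.114), and in both the groups did not overlap. HERVK11D-int had 1.74 (adjusted p = 0.0962) from levels between 1.18 and 6.22 CPM. HERVK-int again had overlapping groups, at 178.2 and 210.4 CPM with 5-FU and 182.6 and 190.4 with DMSO. Without 5-FU 24 h replicate 1, 5 of the 14 names were called, all higher, beside 281 of all 1084 names. Without 5-FU 24 h replicate 2, 3 were called higher and 1 lower, beside 240 of 1083. Without DMSO 24 h replicate 1, 2 were called higher, beside 63 of 1084.

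The LTR5A change at 12 and 24 h lay largely in its most abundant copy. Without the copy chr10:33183384-33184411, LTR5A had a log2 fold change of 0.26 (edgeR adjusted p = 0.0848) at 12 h and 0.09 (adjusted p = 0.711) at 24 h. LTR5 without its 55-base fragment had 0.49 at 12 h and was not called. LTR5B at 0.86, LTR5_Hs at 0.44 and HERVK3-int at 0.51 were still called without the most abundant copy of each.

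At 6 h of 5-FU none of the 14 names was called by edgeR, as for all names (0% called). Of the 14, 4 had an unadjusted p under 0.05, beside 126 of all 1078 names, and DESeq2 called 0, beside 2 of all. LTR5A had the smallest p of the 14. It stood at 259.1 and 305.8 CPM with 5-FU and 218.0 and 206.6 with DMSO, a log2 fold change of 0.41 (adjusted p = 0.108). Fitted on those 4 libraries alone, LTR5A and HERVK3-int were called, both higher, and so were 101 of all 1063 names tested, 86 of them higher. The effect at 24 h minus that at 6 h was called by edgeR in 0 of the 14 names, against 1.11% of all. It had an unadjusted p under 0.05 in 1 (119 of all 1078) and was called by DESeq2 in 0 (20 of all).

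LTRs of the other HERVK groups were counted at the same time points, from a list of their names. At 12 h, 9 of 28 tested were higher and 0 lower, beside 28.5% higher and 5.29% lower of all names, and the median log2 fold change was 0.20 against 0.17. Among them were LTR3 (0.70) and LTR3A (0.79), the LTRs of HERVK3, and MER9a3 (0.65), an LTR of HERVK9. The most abundant copy held 89.5% of the LTR3 counts, 45.5% of those of LTR3A and 35.7% of those of MER9a3. That LTR3 copy, chr19:58826206-58826633, was not called by itself at 12 h (0.47, edgeR adjusted p = 0.214). LTR13 (0.66) and LTR13A (0.65), the LTRs of HERVK13, were higher while HERVK13-int was not called. At 24 h, 3 of 28 were higher, beside 10.9% of all names, namely LTR3A (0.64), MER9a3 (0.50) and LTR22B2 (1.11). A single copy, chr19:19901948-19902481, held 93.5% of the LTR22B2 counts.

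DMSO itself was compared with untreated cells, as the mean of the 3 DMSO groups. LTR5 (-0.94, edgeR adjusted p = 0.00561), LTR5_Hs (-0.34, adjusted p = 0.00741), LTR5A (-0.29, adjusted p = 0.0275) and HERVK3-int (-0.32, adjusted p = 0.0275) were lower in DMSO, and HERVKC4-int (1.58, adjusted p = 0.0213) was higher. This was 5 of 14 names, 1 higher and 4 lower, against 11.8% of all (1.67% higher and 10.1% lower). Of the 5 names that rose at 12 h of 5-FU, 4 were thus below the untreated level in the mean of the DMSO groups. The DMSO 12 h group, which is part of both comparisons, was the lowest DMSO group in each of these. In DMSO at 6 h LTR5 (23.6 and 21.8 CPM) overlapped untreated cells (23.4 and 23.1), and LTR5_Hs (382.5 and 354.4) did too. HERVK3-int in DMSO 24 h replicate 1, at 344.0 CPM, lay above both untreated libraries (333.9 and 343.0). LTR5A was below untreated in all DMSO libraries. Untreated LTR5_Hs was at 414.6 and 379.6 CPM, above both 5-FU 12 h libraries. Without the 55-base fragment LTR5 had 2.36 in place of -0.94 (adjusted p = 0.283). These calls did not hold with either untreated library left out, in fits where calls over all names fell as well. With RLE factors the calls were 3 higher (HERVKC4-int at 1.61, HERVK13-int at 0.62 and HERVK9-int at 0.35) and 2 lower (LTR5 at -0.91 and LTR5_Hs at -0.31), and over all names they were 28 higher and 49 lower in place of 18 and 109. Fitted on the libraries of the comparison alone, the balance turned around. The calls were then 5 higher (HERVK-int at 0.38, HERVK9-int at 0.44, HERVK11-int at 0.75, HERVK13-int at 0.71 and HERVKC4-int at 1.70) and 1 lower (LTR5 at -0.82), and over all names 161 higher and 57 lower.

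With Nutlin none of the 12 names tested was called by edgeR, against 12.7% of all names (9.63% higher and 3.11% lower). HERVK11D-int and HERVKC4-int had too few counts to be tested. Of the 12, 3 had an unadjusted p under 0.05, beside 266 of all 1028 names, and DESeq2 called 0, beside 92 of all. HERVK-int had 40.8 and 35.3 CPM with Nutlin and 33.5 and 26.2 with DMSO. The groups did not overlap, and the log2 fold change was 0.35 (SE 0.13, adjusted p = 0.0615). HERVK9-int had 0.26 (adjusted p = 0.121) and HERVK14-int 0.28 (adjusted p = 0.184). LTR5_Hs was at 130.9 and 125.1 CPM with Nutlin and 138.5 and 140.2 with DMSO, a log2 fold change of -0.12 (adjusted p = 0.465). Without DMSO replicate 1, HERVK-int was called, at 0.51 (adjusted p = 0.0066). With RLE factors LTR5_Hs was called lower, at -0.19, and the calls over all names were 86 higher and 93 lower in place of 99 and 32. Among LTRs of other groups, 3 of 26 were higher, namely LTR3B (1.53), LTR14B (0.47) and LTR22B1 (1.46). The most abundant copy held 43.6% of the LTR3B counts, 48.3% of those of LTR14B and 84.7% of those of LTR22B1. That LTR3B copy, chr19:58029442-58029856, belongs to a HERVK3 provirus described below, so the name and that locus are not separate results.

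HERVK-int counts were set against those of LTR5_Hs, alone among the HML-2 LTR names, as a log2 ratio, which needs no scaling between libraries. Some HERVK-int counts lay between LTR5A or LTR5B copies. The solo LTR chr1:148356350-148357322 held 19.8% of the LTR5_Hs counts in the 5-FU table. The ratio thus does not compare the parts of the same proviruses. At 6 h it was -1.40 and -1.52 with 5-FU and -1.24 and -1.31 with DMSO. At 12 h it was -1.37 and -1.46 with 5-FU and -0.83 and -1.004 with DMSO. At 24 h the groups overlapped, at -1.25 and -0.89 against -1.01 and -0.83. The 5-FU groups were lower by 0.19, 0.50 and 0.15 on average at the 3 times. The mean difference was -0.28 (two-sided exact permutation test within times, 216 arrangements, p = 0.0278, where the smallest p possible is 0.00926). Without DMSO 24 h replicate 2 the exact p was 0.0741 and without 5-FU 24 h replicate 1 it was 0.0648. With Nutlin the ratio was -1.68 and -1.82 against -2.04 and -2.41 in DMSO, a difference of 0.48, and 2 samples against 2 cannot give an exact p below 0.333. Untreated cells in the 5-FU table were at -1.49 and -1.82, below all DMSO libraries of that table.

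**Figure D3:**
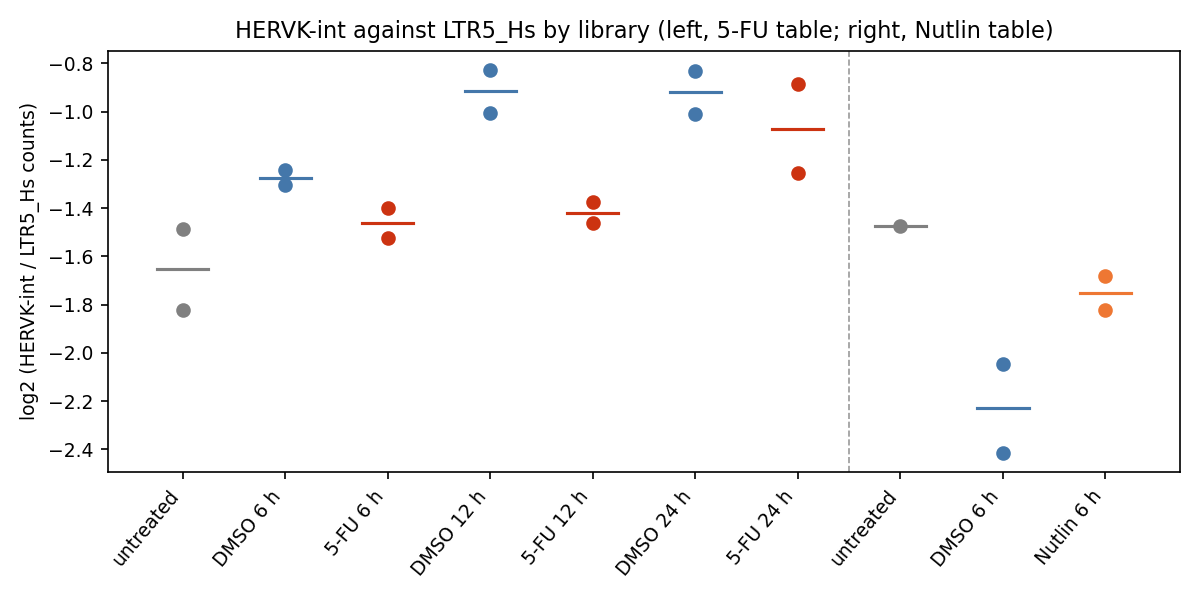
Log2 ratio of HERVK-int to LTR5_Hs counts in each library (points) with group means (lines), for the 5-FU table on the left of the dashed line and the Nutlin table on the right. The 5-FU points at 6 and 12 h lie below their DMSO points, and at 24 h the groups overlap.

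Single copies were tested where their counts passed the filter, which 261 of 3512 did in the 5-FU table (143 internal and 118 LTR5) and 96 of 3330 in the Nutlin table (54 and 42). Against Nutlin's DMSO 9 of 96 were called by edgeR, 6 higher and 3 lower, against 9.57% of all copies (5.36% higher and 4.21% lower). At 6 h of 5-FU 0 of 261 were called, against 0.101% of all (0.0896% higher and 0.011% lower). Of the 261, 16 had an unadjusted p under 0.05, beside 4690 of all 63602, and DESeq2 called 0, beside 110 of all. At 12 h 19 of 261 were called, 13 higher and 6 lower, against 9.71% of all (5.44% higher and 4.27% lower). At 24 h 7 of 261 were called, 4 higher and 3 lower, against 4.23% of all (2.42% higher and 1.82% lower). The share of HERVK and LTR5 copies called was thus close to or below that of all copies in these comparisons. At 12 h, 6 to 9 copies were called when any 1 of the 4 libraries was left out, and with library size alone the split was 6 higher and 16 lower, beside 2056 higher and 4703 lower of all copies. At 24 h, 3 were called without DMSO replicate 1 or 2.

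The LTR5A copy chr10:33183384-33184411, a solo LTR with no internal part beside it, was the most abundant LTR5 copy of the 5-FU table. At 24 h it stood at 154.3 and 153.0 CPM with 5-FU and at 50.2 and 51.6 with DMSO, a log2 fold change of 1.59 (SE 0.20, edgeR adjusted p = 3.37e-05). At 12 h it stood at 200.5 and 185.3 CPM against 83.4 and 78.0, a log2 fold change of 1.26 (SE 0.20, adjusted p = 0.000351). At 6 h it stood at 94.7 and 110.8 CPM against 69.3 and 61.3, with 0.65 (adjusted p = 0.409). The groups did not overlap at any of the 3 times. With Nutlin it had 22.2 and 22.9 CPM against 20.0 and 20.3, with 0.16 (adjusted p = 0.491). The call held at 12 and 24 h under every alternative tried, including each library left out.

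Other repeats around this LTR moved with it. Within 5 kb, 14 copies that belong to no HERVK group were tested. All 14 had a positive log2 fold change at 12 h, from 0.74 to 1.89, and 10 were called higher. At 24 h all 14 were positive again, from 1.26 to 1.99, and 13 were called higher. The LTR5A value lay within the range of its neighbours at both times. Whether the counts come from a transcript that starts in the LTR or from one that runs through it was not tested.

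**Figure D4:**
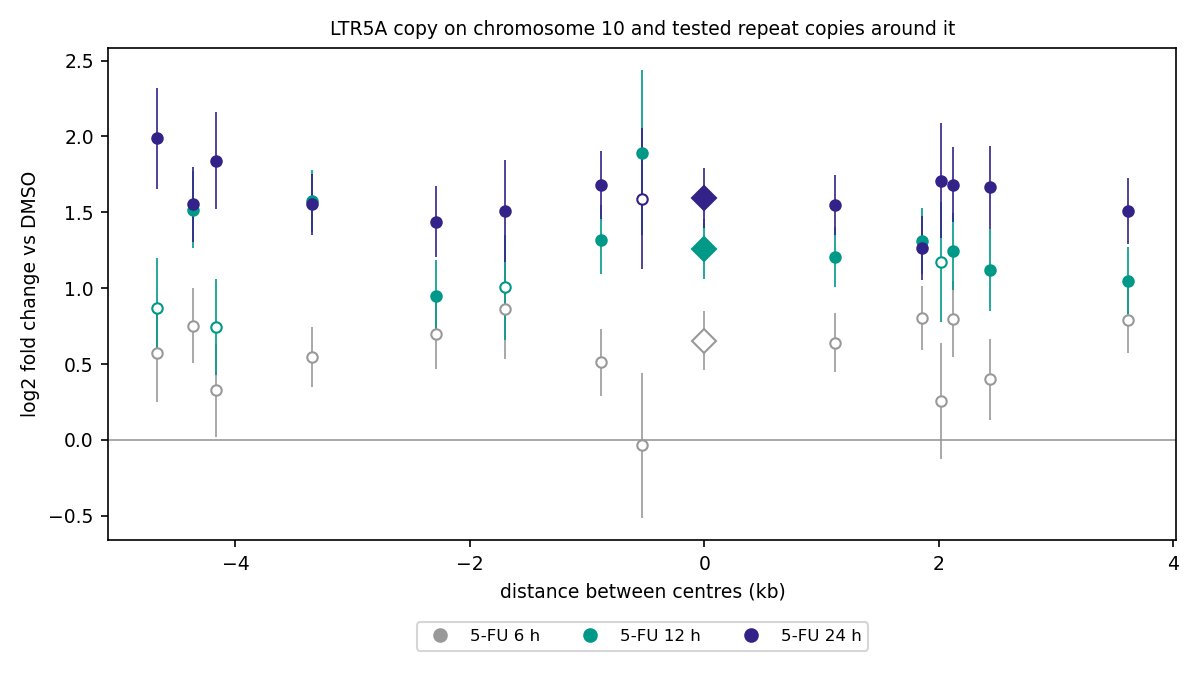
Log2 fold change with 5-FU (with standard error) of the LTR5A copy on chromosome 10 (diamonds at 0) and of the tested repeat copies around it (circles), against the distance between centres in kb; grey is 6 h, teal 12 h and dark blue 24 h, and filled symbols have an edgeR adjusted p under 0.05. At 12 and 24 h all 14 neighbours lie above 0, as the LTR5A copy does at 1.26 and 1.59.

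HERVK3-int had its most abundant copies in a pair of proviruses on chromosome 19. The first runs over chr19:58023984-58029856 between an LTR3B_ and an LTR3B copy. Its long internal copy, chr19:58024740-58029437, stood at 22.5 and 25.6 CPM with Nutlin and at 5.29 and 6.36 with DMSO, a log2 fold change of 2.04 (SE 0.18, edgeR adjusted p = 2.61e-05). The short internal copy beside it, chr19:58024425-58024742, had 2.03 and 2.41 CPM with Nutlin and 0.540 and 0.313 with DMSO, with 2.34 (adjusted p = 0.0245). The call on the long copy held under every alternative tried. The LTR3B of this provirus rose too, by 3.43 on the log2 scale (adjusted p = 0.00291). Of 4 tested neighbours within 5 kb outside the HERVK groups, all were positive and 3 were called higher, with a highest value of 4.87.

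With 5-FU the long copy of this provirus was not called at any time. It had 27.3 and 29.9 CPM at 12 h against 25.6 and 25.6 in DMSO, with a log2 fold change of 0.16 (edgeR adjusted p = 0.718). The difference between the drugs was not tested, since they are in separate tables. The short copy was called at 12 h. It had 24 counts with 5-FU and 1 with DMSO, an 18.6-fold difference with a 95% counting interval from 3.04 to 766. That call was lost without any 1 of the 4 libraries, with adjusted p from 0.0724 to 0.228.

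The second provirus runs over chr19:58817037-58826633 between LTR3 copies, with an LTR13 inside it. Its copy chr19:58822615-58824644 was the most abundant internal copy of both tables. With Nutlin it was lower, at 43.9 and 43.6 CPM against 59.2 and 56.2, a log2 fold change of -0.40 (SE 0.10, edgeR adjusted p = 0.0304). With 5-FU at 12 h it was higher, at 135.2 and 155.1 CPM against 70.4 and 85.3, a log2 fold change of 0.90 (SE 0.24, adjusted p = 0.0190). Groups did not overlap in either comparison. The Nutlin call was lost without DMSO replicate 1 (-0.36), Nutlin replicate 1 (-0.39) or Nutlin replicate 2 (-0.36), and the 5-FU call without any 1 of its 4 libraries, with values from 0.78 to 1.09. Without this copy HERVK3-int as a name was called higher with Nutlin (adjusted p = 0.0192). That sum still held the first provirus, whose long copy had 255 and 212 counts with Nutlin and 49 and 61 with DMSO. The name without both proviruses was not tested.

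Copies along the second provirus did not move alike with 5-FU. At 12 h chr19:58817484-58818594 rose by 0.81 (edgeR adjusted p = 0.0452) and chr19:58824957-58825710 by 1.81 (adjusted p = 0.00226), on the log2 scale. The first call was lost without any 1 of the 4 libraries (0.68 to 1.03) and the second without DMSO 12 h replicate 2 (1.77). A copy between them, chr19:58818689-58821622, had -1.19 (adjusted p = 0.0704) at 12 h and was lower at 24 h. There it stood at 8.57 and 7.90 CPM against 25.6 and 17.7, a log2 fold change of -1.40 (adjusted p = 0.0268). The LTR13 that follows it inside the provirus, chr19:58821623-58822614, was negative too. That LTR had -1.35 at 12 h and -0.94 at 24 h, and was not called. The 7 tested neighbours of the copy outside the HERVK groups all had positive values at 24 h, from 0.18 to 0.94. The 24 h call was lost without DMSO replicate 1 (-1.13) or 5-FU replicate 2 (-1.35).

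**Figure D5:**
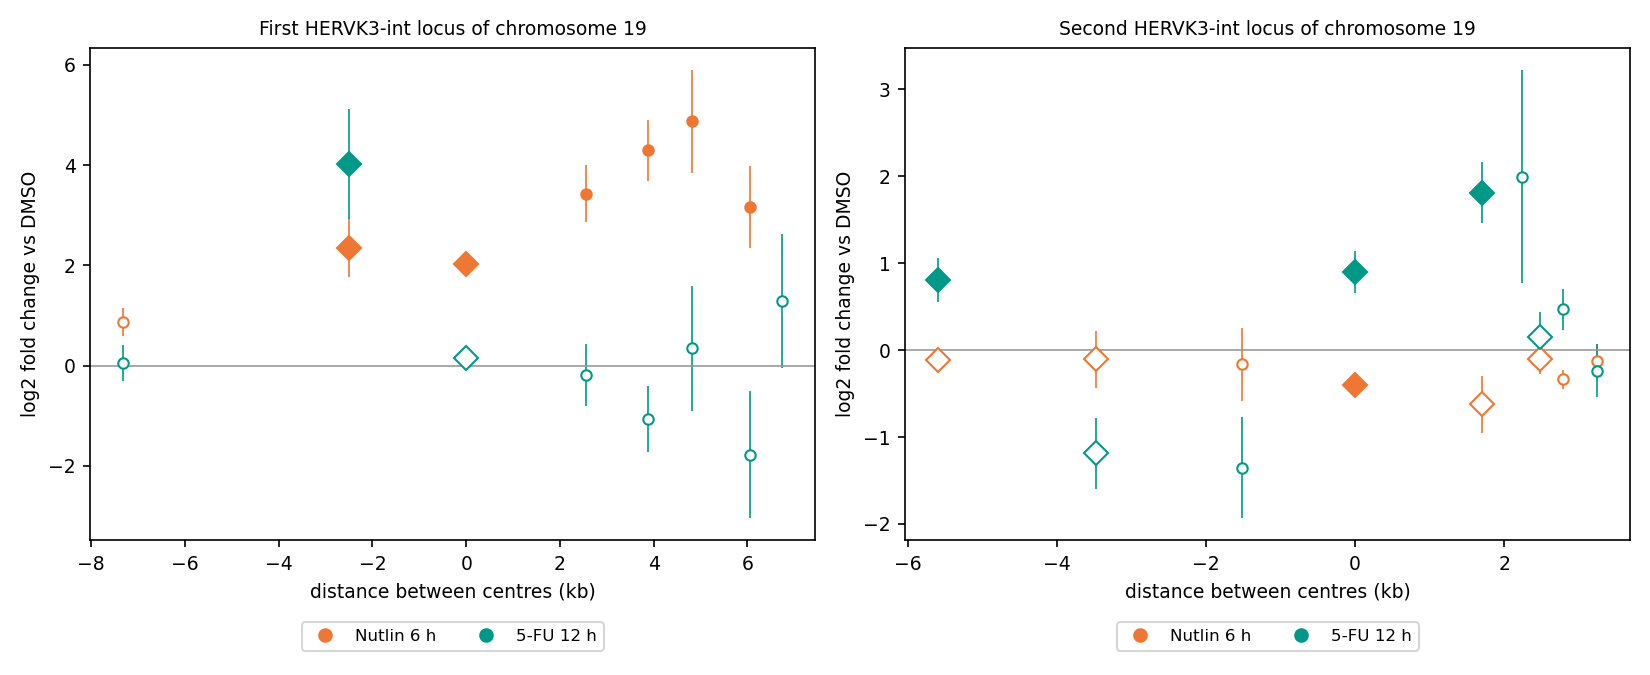
Log2 fold change (with standard error) of HERVK3-int copies (diamonds) and of other tested repeat copies (circles) around the long copy of the first and the most abundant copy of the second HERVK3 provirus on chromosome 19, against the distance between centres in kb; orange is Nutlin 6 h, teal 5-FU 12 h, and filled symbols have an edgeR adjusted p under 0.05. The centre copies are at 2.04 with Nutlin in the first panel, and at -0.40 with Nutlin and 0.90 with 5-FU in the second.

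Copies of HERVK-int itself were called in 3 proviruses. The most abundant internal copy of that name in the Nutlin table, chr3:125610106-125617635, spans nearly the whole consensus. It was lower at 12 h of 5-FU, at 15.6 and 14.2 CPM against 26.3 and 32.5, a log2 fold change of -0.98 (SE 0.28, edgeR adjusted p = 0.0305). This call was lost without any 1 of the 4 libraries, with values from -1.11 to -0.78. At 24 h its groups overlapped, and so they did with Nutlin. The copy chr3:101411706-101417184 rose with Nutlin, at 1.94 and 3.50 CPM against 0.432 and 0.729, with 2.17 (adjusted p = 0.0271), and lost the call without DMSO replicate 1 (1.86) or Nutlin replicate 2 (1.74). With 5-FU it had 1.39 at 12 h (adjusted p = 0.152) and 1.20 at 24 h (adjusted p = 0.192), and at both times the groups did not overlap.

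The third, chr8:12317516-12324980, lies between LTR5A copies. At 12 h it had 0 counts in both 5-FU libraries and 4 and 42 counts in the DMSO libraries. Against a floor of 3 counts over the 5-FU group it was at least 19.8-fold lower. The bound rests on DMSO 12 h replicate 2, and it was 3.38-fold without that library and 36.7-fold without DMSO 12 h replicate 1. The call was lost without DMSO 12 h replicate 2 (adjusted p = 0.312) or either 5-FU 12 h library. At 6 h and at 24 h its groups overlapped, and 5-FU 24 h replicate 2 had 17.2 CPM.

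In the abundant HML-2 provirus of chromosome 1, neither the first LTR nor the long internal copy was called with either drug. Its first LTR, the LTR5_Hs chr1:155596457-155597424, had 53.8 and 54.9 CPM at 12 h of 5-FU and 33.0 and 32.9 in DMSO, with a log2 fold change of 0.72 (edgeR adjusted p = 0.0879). At 24 h it had 89.6 and 53.6 CPM against 46.6 and 43.0 (0.67, adjusted p = 0.151). Its internal copy chr1:155599135-155604668 had overlapping groups at both times, with -0.14 at 12 h and -0.14 at 24 h.

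Of the 7 LTR5_Hs copies tested on chromosome 1, 2 solo LTRs were called lower with Nutlin, and the others were not called. The copy chr1:144603414-144604386 had 0.529 and 1.45 CPM with Nutlin and 3.46 and 5.21 with DMSO, a log2 fold change of -2.20 (SE 0.46, edgeR adjusted p = 0.0118), and kept the call with each library left out. The copy chr1:148565786-148566758 had 8.02 and 8.33 CPM against 11.6 and 13.96, with -0.64 (adjusted p = 0.0493), and lost the call without DMSO replicate 2 (-0.48) or either Nutlin library. This second copy was also called lower at 12 h of 5-FU, but the groups overlapped, at 12.3 and 15.7 CPM against 14.1 and 69.6. Without DMSO 12 h replicate 2 its log2 fold change was 0.04 (adjusted p = 0.996). The most abundant LTR5_Hs copy, chr1:148356350-148357322, was not called with either drug, and had 33.8 and 33.0 CPM with Nutlin against 40.1 and 42.7 (-0.31, adjusted p = 0.106).

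HERVK9-int was the internal name with the most copies. The copy chr3:129621256-129625645 rose at 12 h (2.10, edgeR adjusted p = 0.0261) and at 24 h (1.82, adjusted p = 0.0272). At 24 h it had 12.5 and 8.67 CPM against 2.996 and 2.92. The copy chr19:23755889-23757284 had 45 counts with 5-FU at 12 h and 2 with DMSO, a 17.5-fold difference with a counting interval from 4.56 to 149. The copy chr12:52128496-52131502 went the other way, with 3 counts against 26, an 11.2-fold difference with an interval from 3.42 to 57.6. The 12 h call on the chr3 copy was lost without DMSO replicate 2 (1.34), 5-FU replicate 1 (1.94) or 5-FU replicate 2 (2.32). Its 24 h call was lost without DMSO replicate 1 (1.82), DMSO replicate 2 (1.75) or 5-FU replicate 1 (1.5). The call on the chr19 copy was lost without DMSO replicate 1 (3.08) or 5-FU replicate 1 (3.80), and that on the chr12 copy without DMSO replicate 2 (-2.96) or 5-FU replicate 2 (-2.95).

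The LTR5 fragment chr7:137564943-137564997 rose at 12 h, at 17.0 and 15.4 CPM against 4.08 and 5.35, with a log2 fold change of 1.78 (SE 0.32, edgeR adjusted p = 0.00127). It lost the call against the DMSO libraries of 6 and 24 h (0.04, adjusted p = 0.925). At 24 h the LTR5A copy chr7:97570329-97571358 rose (2.08, adjusted p = 0.0323), as did the HERVK3-int copy chr19:53488988-53491295 (1.49, adjusted p = 0.0244), and the calls were lost without any 1 of the 4 libraries and without DMSO replicate 1 or 2 or 5-FU replicate 1, respectively. A pair of solo LTRs had 0 counts in both 5-FU 24 h libraries. The LTR5B copy chr15:91516337-91517298 had 18 and 24 counts in DMSO and was at least 13.5-fold lower with 5-FU. The LTR5_Hs copy chr2:215667616-215668576 had 13 and 8 counts in DMSO and was at least 6.76-fold lower. The first kept its call with each library left out, and the second lost it without any 1.

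On chromosome X the HERVK3-int copy chrX:53191598-53192540 rose with Nutlin, at 2.996 and 3.74 CPM against 1.19 and 1.46 (1.33, edgeR adjusted p = 0.0458), and lost the call without either DMSO library or Nutlin replicate 2. The HERVK3-int copy chrX:57129874-57132669 was lower at 12 h of 5-FU, with 1 count against 12, a 15.5-fold difference with an interval from 2.29 to 661, and lost the call without any 1 of the 4 libraries. Other abundant copies were not called in any comparison. The HERVK14-int copy chr19:58412503-58414029 had log2 fold changes from -0.09 to 0.47, the LTR5A copy chr10:29715640-29716669 from -0.42 to 0.25, and the HERVK3-int copy chr19:58826017-58826205 from -0.10 to 0.42.

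The other called copies were chosen after their values were seen, and their calls were not followed with single libraries left out. With Nutlin the LTR5_Hs copy chr14:20737082-20738049 rose by 1.74 (edgeR adjusted p = 0.0488) and the LTR5B copy chr9:139690985-139691906 by 1.73 (adjusted p = 0.0477), on the log2 scale. At 12 h of 5-FU the HERVK3-int copy chr12:33850389-33850601 rose by 2.07 and the HERVK9-int copy chr10:42982469-42987876 by 1.24. LTRs that rose at that time were the LTR5_Hs copy chr12:6995024-6995985 (1.63) and the LTR5B copy chr5:43077124-43078108 (1.56). The DMSO libraries of that LTR5_Hs copy were far apart, at 15.2 and 1.91 CPM, against 30.9 and 22.6 with 5-FU. The LTR5_Hs copy chr5:74901658-74902617 had 32 counts with 5-FU and 3 with DMSO, an 8.28-fold difference with an interval from 2.59 to 42.2. The HERVK9-int copy chr7:151735701-151738018 was lower, at 0.882 and 0.871 CPM against 4.08 and 4.21 (-2.20, adjusted p = 0.0435). In all of these the drug and DMSO libraries did not overlap, which adds no support, since they were picked by calls on the same libraries.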

How the data were processed

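Total RNA of 18 IMR90 samples was sequenced with a stranded kit, per the labels. The authors deposited raw counts per annotated repeat copy in 2 tables. The submitters' processing notes name Trimmomatic 0.32, cutadapt 1.10, Bowtie2, edgeR, DESeq2 and hg19. The counting program and the handling of reads that match several copies are not given in the sources used here. Positions are those of the tables, with hg19 as the build. Rows carry no strand. Since both untreated columns beside Nutlin hold identical values, they were counted as 1 sample.

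Copies, and sums of counts over the copies of a name, were fitted over the whole table with edgeR 4.0.16 (filterByExpr, TMM, glmQLFit and glmQLFTest; limma 3.58.1, R 4.3.3), on groups without a replicate block. Nutlin's filter used its 4 drug and DMSO libraries. Fits of names used the library totals and TMM factors of the unfiltered copies. Results were called at 0.05 after Benjamini-Hochberg adjustment over all features. The standard error is the absolute log2 fold change over the square root of F. Ratios used a pseudocount of 1. Folds with 3 counts or fewer in a group have exact 95% binomial intervals or the floor of 3 counts over the group. Intervals and floors cover counting error only. The procedure was tested on simulated data, where false calls were near the threshold for names and above it for copies. Many changes of copies were missed there, and in the 5-FU table most of the larger ones were missed too. Alternatives were other scalings, filters, thresholds and control libraries, DESeq2 1.42.0, and leaving out each library.

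The members and lists were chosen with earlier results of these data known. Every name may be named. Named copies are the 5 internal and 5 LTR5 copies with the highest level in each table, the 4 risen and 4 fallen with the smallest p in each drug comparison, and copies called with both drugs. Python 3.11.15, numpy 2.4.6, pandas 2.3.3, scipy 1.17.1 and matplotlib 3.10.9 were used.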

Additional observations from a re-analysis of the deposited data

Results flagged for a closer look

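In 4 named copies the 5-FU and DMSO libraries did not overlap at 2 or 3 times, with opposite directions between times. The share of all copies with this pattern was not counted, and groups of 2 libraries can separate without any effect. The copies chrX:57129874-57132669 and chr12:52128496-52131502 were named for their fall at 12 h. The difference between the times was not tested for any of the 4. The HERVK14-int copy chr19:58412503-58414029 had a log2 fold change of -0.094 at 6 h and 0.47 at 24 h. The HERVK3-int copy chrX:53191598-53192540 had -0.37 at 6 h and 0.66 at 24 h. The HERVK3-int copy chrX:57129874-57132669 had -3.71 at 12 h, from 1 count against 12, and 0.99 at 24 h. The HERVK9-int copy chr12:52128496-52131502 had 0.21 at 6 h, -3.40 at 12 h and 0.74 at 24 h. Of these values, the 2 at 12 h were called by edgeR.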

How the results depend on the processing

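Of 27 called results of named copies, 26 kept their direction and 4 kept their call under all alternatives run. These 4 were the LTR5A copy chr10:33183384-33184411 at 12 and 24 h, the HERVK3-int copy chr19:58024740-58029437 with Nutlin and the LTR5B copy chr15:91516337-91517298 at 24 h. With 1 library left out, 21 lost the call under at least 1 choice of library, in fits with fewer samples, where the lone library was taken to vary like the other groups. The exception in direction was the LTR5_Hs copy chr1:148565786-148566758 at 12 h, at 0.036 without DMSO 12 h replicate 2 and -2.29 without DMSO 12 h replicate 1. Counts per copy were low and groups had 2 libraries, which limits what could be called, and how reads with several matches were assigned was not tested.

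Names called with Nutlin were 0 of 12 in the fit reported, beside 131 of all 1028 names. They were 1 with RLE factors (179 of all 1028), 1 with library size alone (231 of 1028) and 1 without structural RNA (159 of 963). They were 1 without the most abundant copy of each name (29 of 979) and 2 with the libraries of the comparison alone (195 of 1028). HERVK-int moved from 0.35 to 0.51 without DMSO replicate 1. At 6 h of 5-FU 2 of 14 were called with the libraries of the comparison alone, beside 101 of all 1063 names. At 12 h, 5 of 14 were called in the fit reported (364 of all 1078) and 3 without the most abundant copy (201 of 1051). Against DMSO of 6 and 24 h 8 were called (461 of 1078). With the libraries of the comparison alone 8 of 13 were called, 5 higher and 3 lower, beside 484 of 1048. At 24 h, 1 of 14 was called in the fit reported (130 of all 1078). With library size alone 0 were called (47 of 1078), and without the most abundant copy 0 (37 of 1051). With the libraries of the comparison alone 0 of 13 were called (4 of 1070). Leaving out a library gave as many or more. For the 24 h minus 6 h effect 0 to 1 were called leaving out a library. For DMSO against untreated, 5 of 14 were called in the fit reported, beside 127 of all 1078 names. They were 2 at adjusted p under 0.01 (29 of 1078), 3 with library size alone (69 of 1078) and 1 without the most abundant copy (41 of 1051). Leaving out a library gave as many or fewer.

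Copies called with Nutlin, 9 of 96 in the fit reported, were 1 at adjusted p under 0.01, beside 794 of all 21328 copies. They were 3 of 948 with no filter (1462 of all 878454) and 4 of 54 with at least 10 counts in every library (1953 of all 13465). DESeq2 called 2 (938 of all 21328). Fewer than in the fit reported were called leaving out a library. At 12 h, 19 of 261 in the fit reported, they were 4 at 0.01 (2264 of all 63602) and 12 of 48 with at least 10 counts (3807 of all 11077). Against DMSO of 6 and 24 h they were 36 (18 higher, 18 lower), with the count over all copies not given. Leaving out a library, fewer than in the fit reported were called. At 24 h, 7 of 261 in the fit reported, they were 2 at 0.01 (1130 of all 63602) and 3 of 1277 with no filter (1759 of all 1403485). With the libraries of the comparison alone they were 4, and leaving out a library also gave fewer than the fit reported. The log2 ratio of HERVK-int to LTR5_Hs ranged from -0.342 to -0.219 leaving out a library. The causes of these changes were not tested, other than fewer samples or features where the setting removes them.

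Values of names that changed sign were near 0 in most cases. HERVK-int at 12 h was 0.018 without structural RNA and from -0.16 (without 5-FU 12 h replicate 1) to 0.097 (without DMSO 12 h replicate 1) leaving out a library. HERVK-int at 24 h was -0.087 with RLE factors, -0.075 with TMM factors from the name sums, -0.15 with library size alone, -0.087 by DESeq2, -0.045 with those libraries alone, and from -0.066 (without 5-FU 24 h replicate 2) to 0.17 (without 5-FU 24 h replicate 1) leaving out a library. With library size alone HERVK3-int with Nutlin was -0.021, LTR5A with Nutlin -0.060, and LTR5_Hs -0.090, -0.070 and -0.029 at 6, 12 and 24 h. LTR5_Hs at 12 h was -0.10 against DMSO of 6 and 24 h. LTR5 in DMSO against untreated was 2.36 without its most abundant copy.

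Same-numbered replicates share only a number in the labels. The correlations of their deviations were -0.072, 0.022, 0.019 and 0.37 over names and -0.0083, -0.0040, -0.017 and 0.15 over copies for Nutlin and 5-FU at 6, 12 and 24 h. With a replicate block the copies called with Nutlin were 5 in place of 9, beside 1748 in place of 2041 of all copies. At 24 h they were 6 in place of 7, beside 2407 in place of 2693 of all copies. The counts of HERVK and LTR5 names called did not change. The ratio had p = 0.0313 in the exact test with the block.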
